A study of Mus musculus with 53 samples.

Results

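Collagens, laminins and integrins are the main structural proteins of the extracellular matrix and the main receptors that bind it, and their messenger RNA was measured here in the cortex of E16.5 mouse embryos. The genes were taken by name from the protein-coding genes of the GENCODE M21 annotation: every numbered collagen chain, every laminin alpha, beta or gamma chain, and every integrin alpha or beta subunit, without the genes for integrin-binding proteins that share the integrin prefix. The rule used no measured value and found 83 genes, 44 collagens, 11 laminins and 28 integrins, among 20214 protein-coding genes and 37991 gene identifiers in all.

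Collagen chains wind around each other into triple helices, which form fibrils in connective tissue and, as collagen IV, a sheet in every basement membrane. Laminins are cross-shaped trimers of an alpha, a beta and a gamma chain that polymerise on cell surfaces and start the assembly of basement membranes. Integrins are receptors of an alpha and a beta subunit that bind these ligands and couple them to the actin cytoskeleton. In the developing cortex, a basement membrane under the meninges anchors the endfeet of radial glia, the neural progenitors whose fibres span the cortical wall, and other basement membranes surround the blood vessels.

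The series sequenced RNA of 53 libraries in 19 groups of mouse neurons, astrocytes and brain tissue to follow histone turnover and transcription. The group used here was the untreated cortex of C57bl/6 embryos at stage E16.5, with 3 libraries and no genetic change or agent given. RNA was taken with Trizol and RNeasy Micro columns and made into TruSeq libraries, per the labels' protocols. The other 50 libraries, in 18 groups, were not analysed here, so no condition is compared with another. The sources used here do not say whether separate embryos or litters gave the 3 libraries.

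The values were the authors' mean RPKM over these 3 libraries, that is, reads scaled to library size and per kilobase of the whole gene span with its introns. Because collagen, laminin and integrin genes have long introns, the median span was 82.5 kb over the 83 genes and 18.7 kb over protein-coding genes, levels are also given per kilobase of exon, called exon RPKM below. The exon lengths were 7.02 kb at the median of the 83 genes and 3.67 kb at the median of protein-coding genes. The mean was also resolved into whole reads in each library, as the processing section describes, for 78 of the 83 genes. The libraries held 71.6 M, 64.8 M and 51.3 M reads and are called the deepest, the middle and the shallowest. Which labelled replicate each one is was not told apart. Spread between them may be technical, and intervals from read counts cover counting error only. All 10 markers of cortical neurons and progenitors stood at 1 RPKM or more, against 31.6% of protein-coding genes. They ran from Pax6 at 1.57 RPKM to Neurod6 at 194 RPKM.

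Most of the 83 genes were low in the embryonic cortex, and Itgb1 and a few basement membrane chains had the most reads. None was listed at 0, against 3074 of the 20214 protein-coding genes. As deposited, 3 of the 83 genes (3.61%) reached 1 RPKM, against 31.6% of protein-coding genes. At 0.5 RPKM there were 6, against 41.1% of protein-coding genes, and at 2 RPKM there was 1, against 21.3%. The 3 genes at 1 RPKM or more were Itgb1, the beta subunit shared by most matrix-binding integrins, at 2.12 RPKM, Lamb2, the laminin beta 2 chain, at 1.54 RPKM, and Col9a3, a chain of the fibril-associated collagen IX, at 1.09 RPKM. Per kilobase of exon, 24 of the 83 (28.9%) reached 1 exon RPKM, against 54.1% of protein-coding genes. At 5 exon RPKM or more there were 5 of the 83 (6.02%), against 34.3% of protein-coding genes: Itgb1, Col4a1, Col4a2, Col9a3 and Lamc1. The share of the 83 genes was below that of protein-coding genes at each of these limits. The median was 0.305 exon RPKM for the 83 genes and 1.57 exon RPKM for protein-coding genes.

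By family, 13 of 44 collagens (29.5%), 4 of 11 laminins (36.4%) and 7 of 28 integrins (25.0%) reached 1 exon RPKM, against 54.1% of protein-coding genes. The median levels were 0.278 exon RPKM for collagens, 0.858 exon RPKM for laminins and 0.308 exon RPKM for integrins. On the deposited scale the medians were 0.0245 RPKM for collagens, 0.0662 RPKM for laminins and 0.0206 RPKM for integrins. On the log2 scale with 0.1 added, the laminin median lay 0.46 above the integrin median for deposited RPKM and 1.23 above it for exon RPKM. The collagen median lay 0.05 above the integrin median for deposited RPKM, but the difference was -0.11 for exon RPKM, so the order of collagens and integrins depended on the length. These are descriptions of gene families, whose members are not replicates.

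**Figure D1:**
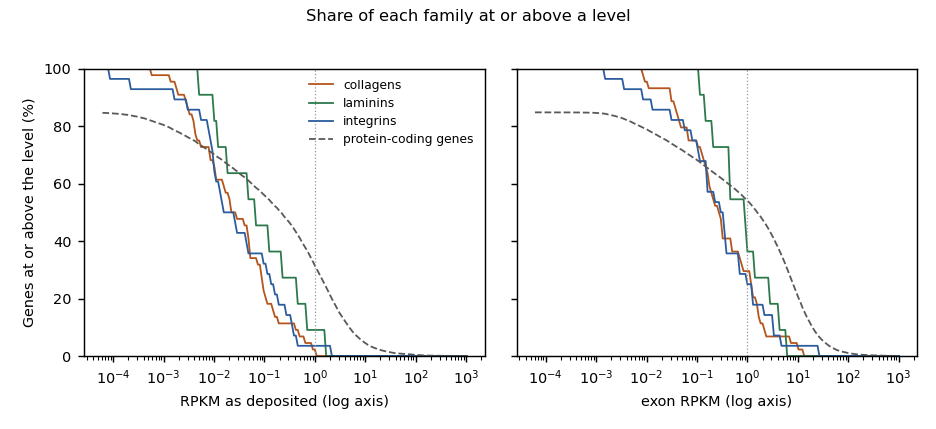
Share of genes (vertical axis, percent) at or above each level (horizontal log axis), for collagens, laminins and integrins and, dashed, for protein-coding genes; left, RPKM as deposited, right, exon RPKM, with a dotted line at 1. The dashed line lies above all 3 families from 0.5 RPKM upwards on the left, and the laminin line lies above the other families through the middle of both panels.

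Reads were concentrated in few genes. Itgb1, Col4a1, Col4a2, Lamc1 and Lamb1 together held 44.9% of the reads of the 83 genes, and the 10 genes with most reads held 64.0%. Of the 10 highest genes on the deposited scale, 8 were also among the 10 highest per kilobase of exon. Col2a1 and Col11a2 were in the first list alone, and Itga6 and Itgb5 in the second alone.

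Among the collagens, the pair that makes the collagen IV network of all basement membranes was highest. Col4a1 had 7358, 6256 and 5139 reads in the deepest, middle and shallowest library, which is 13.8, 12.9 and 13.4 exon RPKM. Col4a2 had 4786, 4278 and 3312 reads, or 10.1, 9.97 and 9.75 exon RPKM in the same order. Each of these genes lay within 1.06-fold between libraries, and Col4a1 stood above Col4a2 in all 3, by 1.30-fold to 1.38-fold per kilobase of exon. The collagen IV protein most common in basement membranes takes the alpha 1 and alpha 2 chains in a fixed proportion, with more of alpha 1. The mean ratio of the messenger RNAs was 1.35 per kilobase of exon, with a 95% counting interval of 1.32 to 1.38, and 1.81 on the deposited scale. Bulk tissue cannot tell fewer cells of a type from less RNA per cell, here and for every gene below.

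The other chains of the collagen IV network were lower. Col4a5 stood at 1.19 exon RPKM and Col4a6 at 0.305 exon RPKM, a ratio of 3.91 that ran from 3.68 to 4.34 over the libraries. Col4a3 had 31, 15 and 21 reads and stood at 0.0359 exon RPKM, and Col4a4, whose reads could not be resolved by library, stood at 0.127 exon RPKM. Col4a1 and Col4a2 together stood at 23.3 exon RPKM, 14.0 times the sum of the other 4 chains. Markers of the cells of vessel walls were measured in the same RNA. Of 10 endothelial markers 9 (90%) reached 1 exon RPKM, against 54.1% of protein-coding genes. Their sums over the resolved genes were 142, 125 and 137 RPM in the deepest, middle and shallowest library. Among them Cldn5, a tight junction gene, was highest at 17.3 RPKM. Of 10 pericyte and mural cell markers 7 (70%) reached 1 exon RPKM, with sums of 152, 141 and 141 RPM. Among these Acta2, of smooth muscle, was lowest at 0.0842 exon RPKM. The part of vessel wall cells in the collagen IV levels was not tested.

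Each collagen IV pair lies head to head on its chromosome, in opposite directions from nearby starts. The starts in GENCODE were 21 bases apart for Col4a1 and Col4a2 on chromosome 8, 127 bases apart for Col4a3 and Col4a4 on chromosome 1 and 1309 bases apart for Col4a5 and Col4a6 on chromosome X. The promoter windows of Col4a1 and Col4a2, 250 bases before to 50 bases after each start, are printed because the levels of this pair lead the family and the windows share 78 bases. They and the other windows below come from RefSeq on build GRCm38.p6, 5′ to 3′, with capitals for the GC box (GGGCGG), the CCAAT box (CCAAT) and the TATA box (TATAAA), each searched on both strands.
Col4a1, chr8:11312777-11313076, minus strand: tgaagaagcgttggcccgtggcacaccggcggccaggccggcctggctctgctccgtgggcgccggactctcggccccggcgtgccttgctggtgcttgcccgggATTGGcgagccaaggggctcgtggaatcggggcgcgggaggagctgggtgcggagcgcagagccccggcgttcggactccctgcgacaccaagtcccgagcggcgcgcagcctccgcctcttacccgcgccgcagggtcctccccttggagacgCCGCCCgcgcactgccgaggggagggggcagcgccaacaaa
Col4a2, chr8:11312555-11312854, plus strand: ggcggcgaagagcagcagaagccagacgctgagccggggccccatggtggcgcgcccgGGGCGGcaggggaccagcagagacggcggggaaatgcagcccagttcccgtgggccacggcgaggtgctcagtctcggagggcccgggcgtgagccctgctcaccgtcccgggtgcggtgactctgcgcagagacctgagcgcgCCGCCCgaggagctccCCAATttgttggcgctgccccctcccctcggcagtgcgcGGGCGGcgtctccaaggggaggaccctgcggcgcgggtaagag
The Col4a1 window held 37 CpG dinucleotides, 74.0% G or C, 1 GC box and 1 CCAAT box. The Col4a2 window held 33 CpG, 73.7% G or C, 3 GC boxes and 1 CCAAT box. Neither held TATAAA. The exons of the pair overlap at these starts, and the strand used in counting is not given, so reads there cannot be told apart between them.

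The multiplexin collagens, which carry the anti-angiogenic endostatin domain in collagen XVIII and a related domain in collagen XV and sit in vascular and epithelial basement membranes, were close in level. Col15a1 stood at 1.62, 1.93 and 1.94 exon RPKM and Col18a1 at 1.53, 1.75 and 1.55 exon RPKM in the deepest, middle and shallowest library. Their ranges overlapped, although Col18a1 was the lower one in each library.

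Of 11 fibrillar collagens, 4 (36.4%) reached 1 exon RPKM, against 54.1% of protein-coding genes. All 4 belong to the minor fibrillar chains or to cartilage collagen. Col11a1 stood at 2.24, 2.45 and 2.19 exon RPKM in the deepest, middle and shallowest library. Col2a1, the main collagen of cartilage, stood at 2.30, 1.93 and 1.86 exon RPKM. Their ranges overlapped, and both were above the other fibrillar chains in every library. Col11a2, a partner of both in cartilage fibrils, stood at 1.57, 1.78 and 1.30 exon RPKM. Col5a2, a chain of collagen V, stood at 1.24, 1.34 and 0.961 exon RPKM. The collagens of skin, bone and meninges were far lower. Col1a1 had 50, 60 and 37 reads, or 0.119 exon RPKM with a 95% counting interval of 0.101 to 0.140. Col1a2 had 163, 179 and 137 reads, or 0.207 exon RPKM. Col3a1 had 202, 224 and 156 reads, or 0.316 exon RPKM. Each of these 3 genes, which make collagens I and III, lay below the median of protein-coding genes, and Col3a1 was above Col1a1 by 2.66-fold per kilobase of exon and 1.75-fold on the deposited scale. Of the other fibrillar chains, Col5a1 of collagen V stood at 0.828, Col27a1 at 0.186, Col24a1 at 0.0993 and Col5a3, the lowest, at 0.0674 exon RPKM.

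Meningeal fibroblasts make these collagens and could lie on a dissected cortex, so their markers were read beside them. Of 12 such markers 3 (25%) reached 1 exon RPKM, against 54.1% of protein-coding genes. These were Zic1 at 4.65, Islr at 10.1 and Pdgfra at 1.99 exon RPKM. The lowest of the 12 on the deposited scale was Aldh1a2 at 0.000804 RPKM. None was listed at 0, and the median was 0.200 exon RPKM. Of 10 cartilage and bone markers 1 (10%) reached 1 exon RPKM, Sox9 at 5.32 exon RPKM, a gene that neural progenitors also express. Acan, the cartilage proteoglycan aggrecan, stood at 0.0361 exon RPKM and Matn1 at 0.0137 exon RPKM. The 11 fibrillar collagens summed to 89.0, 92.4 and 79.8 RPM in the deepest, middle and shallowest library, and the cartilage and bone markers to 25.9, 23.8 and 21.7 RPM. Per kilobase of exon the cartilage and bone markers summed to 5.80, of which Sox9 alone held 5.32, so their sum is mostly Sox9. The part of meningeal or skeletal cells in the fibrillar collagen levels was not tested.

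Among the fibril-associated collagens, Col9a3 stood apart from its partner chains. It had 1961, 1623 and 1394 reads in the deepest, middle and shallowest library, or 7.11, 6.50 and 7.05 exon RPKM. The other chains of the collagen IX trimer were Col9a2 at 0.794, 0.917 and 0.504 exon RPKM and Col9a1 at 0.223, 0.259 and 0.200 exon RPKM. In every library Col9a3 was thus above Col9a2, and Col9a2 above Col9a1, with no overlap. Col9a3 overlaps an exon of Tcfl5 on the other strand, and Tcfl5 stood at 0.501 RPM against 26.5 RPM for Col9a3. Col12a1, which coats collagen I fibrils, stood at 1.47 exon RPKM, Col22a1, a collagen of tissue junctions, at 1.27 exon RPKM, and the lowest of the group was Col14a1 at 0.161 exon RPKM. Col16a1 at 0.693, Col19a1 at 0.483 and Col20a1 at 0.305 exon RPKM lay between, and Col20a1, which was not resolved, shares exon sequence with BX649560.1 on the same strand, at 7.97 RPM against 1.57 RPM for Col20a1. Among the 4 transmembrane collagens Col23a1 reached 1.09 exon RPKM, with 427, 499 and 264 reads, while Col25a1, found in amyloid plaques and made by neurons, stood at 0.268, Col13a1 at 0.0417 and Col17a1 at 0.0309 exon RPKM.

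The beaded-filament collagens of type VI and the short-chain collagens were at the bottom. The 6 collagen VI chains summed to 0.463 exon RPKM, from Col6a2 at 0.164 to Col6a6 at 0.00859 exon RPKM. Their summed reads stood at 3.28 RPM in the deepest, 5.57 RPM in the middle and 3.63 RPM in the shallowest library, and 5 of the 6 chains were highest in the middle library. The exception was Col6a4, with 25, 15 and 23 reads. The meningeal fibroblast markers summed to 62.9, 49.3 and 41.9 RPM in the deepest, middle and shallowest library over 11 resolved genes. Islr, the highest of these markers per kilobase of exon, was not resolved and is in none of these sums. Zic1, which neural cells also express, held 39.9, 21.9 and 17.6 RPM of these sums. Without Zic1 the other 10 markers summed to 23.0, 27.3 and 24.2 RPM, and most of that was Pdgfra, at 17.8, 22.8 and 19.2 RPM. Pdgfra was highest in the middle library, as the collagen VI sum was, but the cells that Pdgfra came from were not tested. The middle library was the lowest for the last 9 markers, which summed to 5.24, 4.55 and 5.05 RPM. The part of meningeal cells in the collagen VI values was not tested. Of the short-chain collagens, Col8a1 had 16, 21 and 9 reads, Col8a2 4, 4 and 1, and Col10a1, the collagen of hypertrophic cartilage, 1, 3 and 1. The remaining chains were Col26a1 at 0.478, Col7a1, the anchoring fibril collagen, at 0.288 and Col28a1 at 0.171 exon RPKM.

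**Figure D2:**
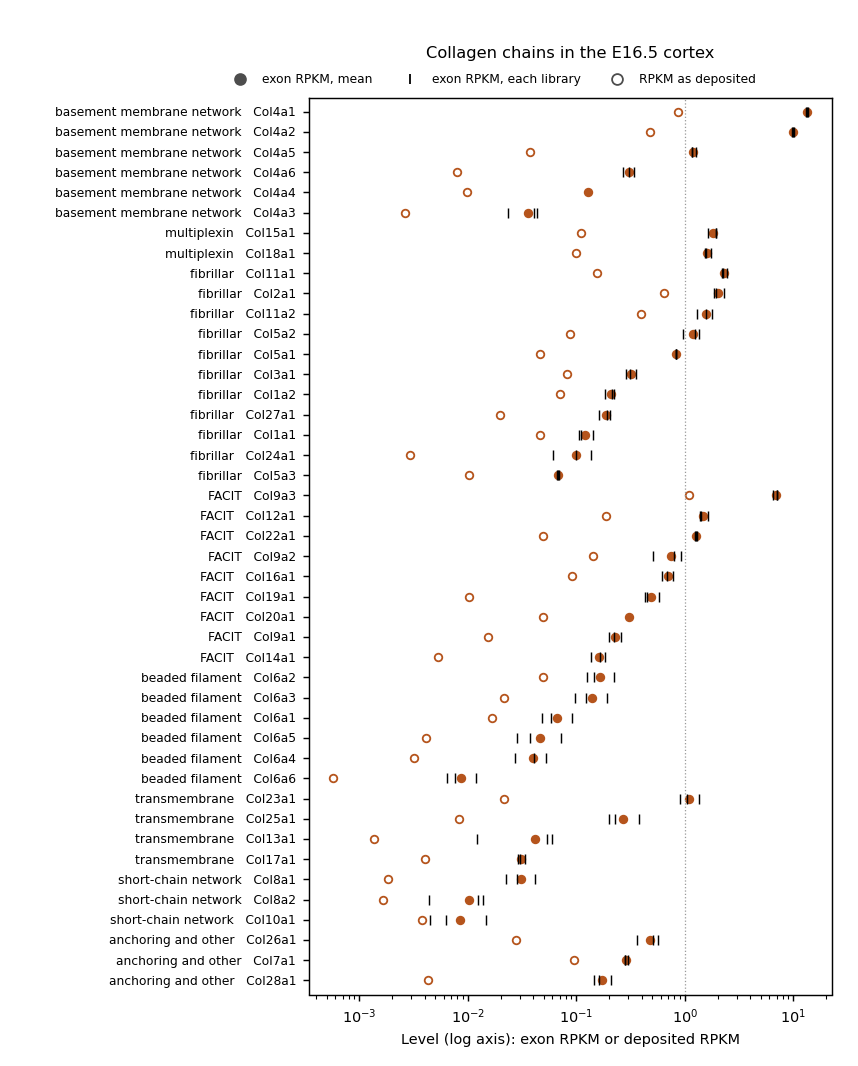
Level of each of the 44 collagen chains (horizontal log axis), grouped by role; filled points are the mean in exon RPKM, ticks the 3 libraries in exon RPKM and open points the RPKM as deposited. Col4a1, Col4a2 and Col9a3 lie to the right of 5 exon RPKM with ticks close together, and the collagen VI chains have means of 0.164 exon RPKM or less with wider ticks; Col4a4 and Col20a1 have no ticks because their reads were not resolved.

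Laminin messenger RNA came mostly from the chains of the widely used trimers with beta 1 or beta 2 and gamma 1. Lamc1, the gamma 1 chain, had 3682, 3204 and 2625 reads in the deepest, middle and shallowest library, or 6.22, 5.98 and 6.18 exon RPKM. Lamb1, the beta 1 chain, had 3050, 2669 and 2214 reads, or 4.30, 4.15 and 4.35 exon RPKM. Lamb2, the beta 2 chain, had 1263, 1078 and 776 reads, or 2.90, 2.73 and 2.49 exon RPKM. The ranges of these 3 genes over the libraries did not overlap per kilobase of exon. Lamb2 lies on a gene of 10.7 kb, the shortest of the laminins, and was the highest laminin as deposited, at 1.54 RPKM against 0.657 RPKM for Lamb1. The ratio of Lamb1 to Lamb2 was 0.426 on the deposited scale and 1.58 per kilobase of exon, with 1.48 to 1.75 over the libraries.

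The alpha chains, which carry the receptor-binding end of the trimer, were lower than Lamc1, Lamb1 and Lamb2 in every library. Lama4, typical of vessels, stood at 1.38, 1.39 and 1.46 exon RPKM. Lama5, a chain of vascular and epithelial basement membranes, stood at 1.04, 0.890 and 0.996 exon RPKM. Lama1, the first laminin alpha chain of the embryo and part of the membrane under the meninges, stood at 0.853, 0.975 and 0.745 exon RPKM. Lama4 was above the other alpha chains in every library, while the ranges of Lama5 and Lama1 overlapped. Lama2, known for its role in muscle and in brain myelin, stood at 0.448 exon RPKM and Lama3, an epidermal chain, at 0.109 exon RPKM. On the deposited scale Lama5 was instead above Lama4, by 1.91-fold. The 5 alpha chains summed to 3.80 exon RPKM, the 3 beta chains to 7.18 and the 3 gamma chains to 6.72. The beta sum was 1.81 to 1.89 times the alpha sum over the libraries, without Lamb3, whose reads were not resolved, and the gamma sum was 1.74 to 1.79 times the alpha sum. With exons of the GENCODE basic transcripts alone, the beta sum was 1.89 times and the gamma sum 1.33 times the alpha sum.

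Lamb3, a beta chain of epidermal basement membranes, was low like Lama3, at 0.204 exon RPKM. The length used by the authors for Lamb3 is uncertain, since its span is 136179 bases in GENCODE and 49525 in RefSeq, so its level may be overstated. Lamc3, a gamma chain known from the retina and from human cortical malformation, stood at 0.454 exon RPKM, and Lamc1 was 13.5 times higher.

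Among integrin subunits, Itgb1 was far above every other. It had 7427, 6448 and 5117 reads in the deepest, middle and shallowest library, or 25.4, 24.4 and 24.4 exon RPKM. It lay above 92.6% of protein-coding genes on that scale, and it was the highest of the 83 genes on both scales. Its 12 alpha partners among the genes measured summed to 11.7 exon RPKM, and Itgb1 was 2.11 times that sum. Over the libraries the ratio ran from 2.05 to 2.24, without Itga2, whose reads were not resolved. With exons of the GENCODE basic transcripts alone the ratio was 1.46. The ratio is one of messenger RNA, not of protein.

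Itga6 and Itga3, which bind laminins, led the alpha subunits. Itga6, an integrin of radial glia and vessels, had 2951, 2636 and 1898 reads, or 4.57, 4.51 and 4.10 exon RPKM. Itga3, known for the attachment of migrating neurons and glial endfeet, stood at 1.99, 2.19 and 2.04 exon RPKM. Itga6 was above Itga3 in each library, by 2.12-fold on average, whereas on the deposited scale the ratio was 0.960. Itga7, mainly a muscle subunit, had 23 reads in the deepest, 82 in the middle and 19 in the shallowest library, the widest spread of any gene with at least 100 reads, at 3.94-fold. Of these 3, Itga7 alone lay below 1 exon RPKM in every library.

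The subunits that bind RGD motifs, as in fibronectin and vitronectin, came next. Itgav stood at 1.29, 1.22 and 1.165 exon RPKM and Itga5, the fibronectin receptor subunit, at 1.36, 1.17 and 1.18 exon RPKM, so their ranges overlapped. The beta partners of Itgav other than Itgb1 were led by Itgb8, which on radial glia and in other cells activates TGF-beta, at 3.20, 3.34 and 3.20 exon RPKM, and by Itgb5, the vitronectin receptor partner, at 3.22, 3.21 and 2.86 exon RPKM. Itgb8 and Itgb5 overlapped, and together they were 4.96 to 5.38 times the level of Itgav over the libraries. With exons of the GENCODE basic transcripts alone they were 4.03 times the level of Itgav. Itgb3, the platelet and osteoclast partner, stood at 0.160 exon RPKM. Itgb6, an epithelial partner and the lowest of the 83 genes, had 2 reads in the middle library and 0 in the others, where a count of 0 allows up to 3 reads, or 0.0419 RPM in the deepest and 0.0585 RPM in the shallowest library. Itga8 stood at 0.372 exon RPKM and Itga2b, the platelet subunit, at 0.325 exon RPKM.

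None of the 4 collagen-binding alpha subunits reached 1 exon RPKM, against 54.1% of protein-coding genes. The highest was Itga10, a subunit of cartilage cells, at 0.676 exon RPKM, followed by Itga1 at 0.332 exon RPKM, Itga2 at 0.151 exon RPKM and Itga11 at 0.149 exon RPKM. Their sum was 1.31 exon RPKM, against 6.54 exon RPKM for the 3 laminin-binding subunits. Itga4 and Itga9, related subunits that bind fibronectin splice forms, VCAM1 and tenascin, stood at 0.696 and 0.365 exon RPKM. Itgb4, the hemidesmosome partner of Itga6, stood at 0.218 exon RPKM, so that Itga6 was 20.1 times and Itgb1 113 times higher.

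The leukocyte integrins were at the low end, except for Itgam. Itgam, a subunit of microglia and myeloid cells, stood at 0.291 exon RPKM, close to the integrin median of 0.308, and Itgb2, its beta partner, had 26, 25 and 12 reads. Itgal had 19, 17 and 4 reads, Itgax 0, 2 and 8, and Itgad 3 reads in the middle library alone. Itgad overlaps Cox6a2 in an exon on the other strand, at 0.0233 RPM against 0.0154 RPM for Itgad. Itgae, which marks lymphocytes in epithelia, stood at 0.0990 exon RPKM, and its beta partner Itgb7 had 11, 5 and 12 reads. Of 10 microglia and macrophage markers 7 (70%) reached 1 exon RPKM, against 54.1% of protein-coding genes. The 10 ran from Ptprc at 0.0424 to Cx3cr1 at 10.2 exon RPKM, with sums over the 7 resolved genes of 16.6, 16.4 and 14.6 RPM. Of 7 red blood cell genes 5 (71.4%) reached 1 exon RPKM, with Hba-a1 highest at 53.6 RPKM, and the paralogous globins are uncertain. Of the integrin-like genes, Itgbl1 stood at 0.975 exon RPKM and Itgb2l had 5, 1 and 1 reads.

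**Figure D3:**
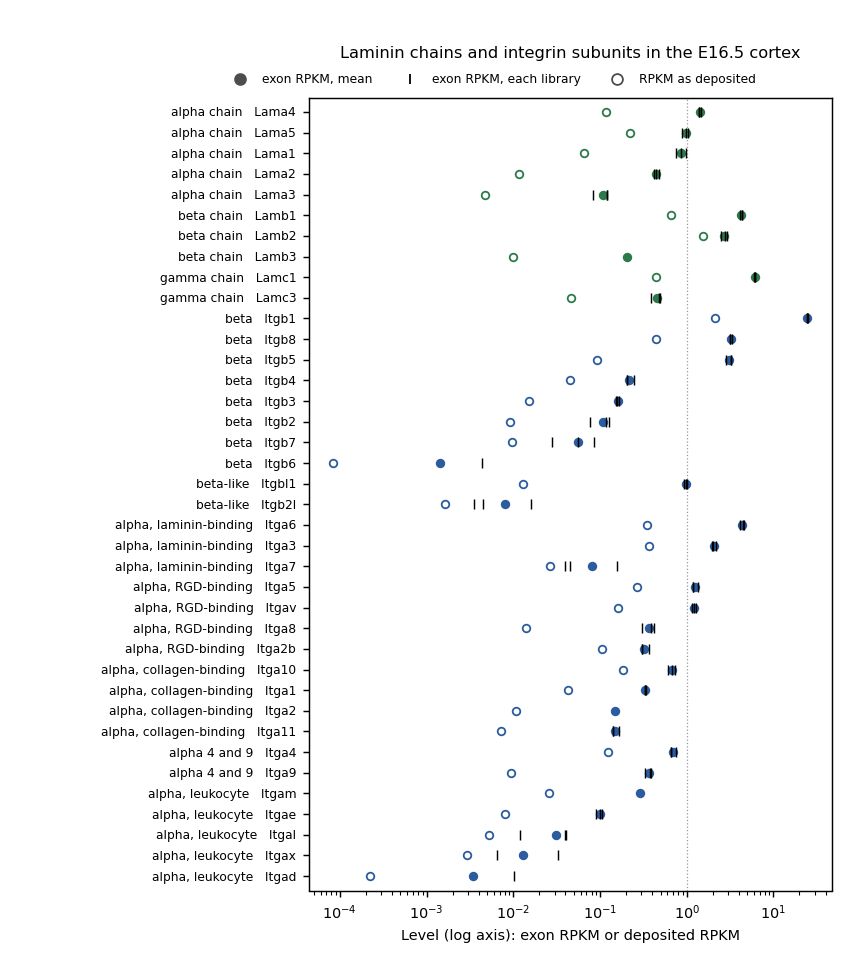
Level of 10 of the 11 laminin chains (upper rows) and 28 integrin subunits (lower rows) on a horizontal log axis, grouped by role; filled points are the mean in exon RPKM, ticks the 3 libraries in exon RPKM where above 0 and open points the RPKM as deposited. Itgb1 lies alone at 24.7 exon RPKM, Lamc1, Lamb1 and Itga6 lie between 4 and 7, and the leukocyte alpha subunits in the bottom rows lie at the left, except Itgam at 0.291 exon RPKM.

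Among the 24 genes at 1 exon RPKM or more, taken in order of level, 8 of the 23 pairs of neighbours did not overlap between their libraries and 15 did. The order was clear for Itgb1, Col4a1, Col4a2, Col9a3 and Lamc1, each of which was above the next in every library. Below these, Itga6 and Lamb1 overlapped, as did Itgb8 and Itgb5, and Itgb5 and Lamb2. With exons of the GENCODE basic transcripts alone, Itga6 stood at 9.09 exon RPKM and Lamb1 at 7.24 exon RPKM, both above Lamc1 at 6.65 exon RPKM, so the order from the fourth place down depended on which transcripts were counted.

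Across the 59 resolved genes with at least 100 reads in all, the highest library was above the lowest by 1.20-fold at the median, in reads scaled to library size (RPM). The range ran from 1.01-fold for Col5a1 to 3.94-fold for Itga7. The difference was over 1.5-fold in 8 genes, among them Col9a2, Col26a1, Col6a2, Col6a3, Col24a1, Col25a1 and Itga7. The middle library was the highest for 40 of the 78 resolved genes, the deepest for 25 and the shallowest for 13. The summed level of the resolved genes was 809, 802 and 773 RPM in the deepest, middle and shallowest library.

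Chains and subunits that work together or replace each other were compared as 22 pairs. The first-named gene was higher in 11 pairs on each scale, and in 4 pairs the order differed between the scales: Lama5 to Lama4, Lamb1 to Lamb2, Lamb1 to Lamc1 and Itga6 to Itga3. Both genes were resolved by library in 21 pairs, and in 19 of these the order was the same in all 3 libraries per kilobase of exon. Col1a1 was below Col1a2, its partner in collagen I, by a ratio of 0.576, although the protein holds more of the alpha 1 chain. Col11a1 was above Col5a1, with which it can share fibrils, by 2.77-fold. Col5a1 was below Col5a2 by a ratio of 0.702, and Col6a1 was below Col6a2 by 0.400.

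**Figure D4:**
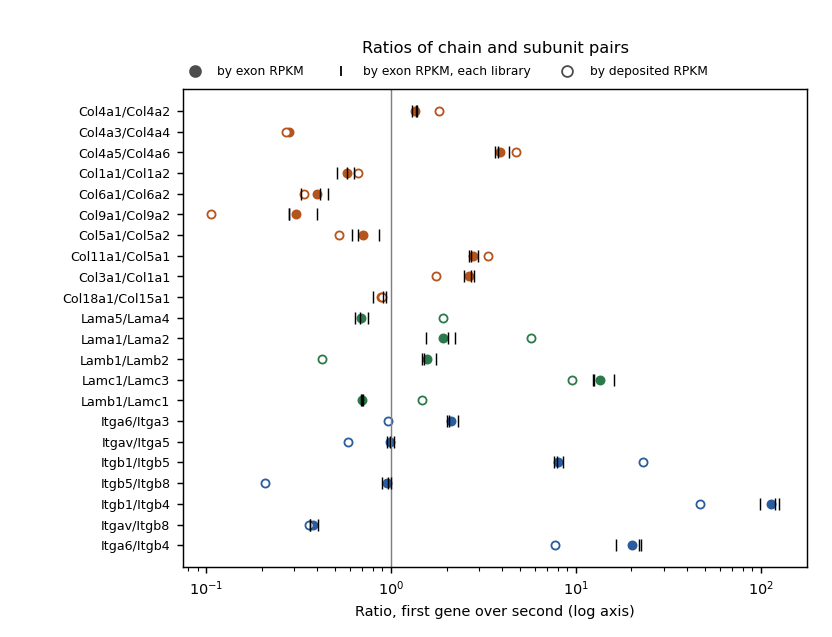
Ratio of the first gene to the second in 22 pairs (horizontal log axis, line at 1); filled points are ratios of mean exon RPKM, ticks the same in each of the 3 libraries and open points ratios of deposited RPKM. Most ticks lie close to their filled point, while the open and filled points fall on opposite sides of 1 for Lama5/Lama4, Lamb1/Lamb2, Lamb1/Lamc1 and Itga6/Itga3.

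Promoter windows in RefSeq matched 60 of the 83 genes. The window held 11.5 CpG at the median of these 60, and 7 at the median of all 32851 windows. It was 17 at the median of the 16 genes at 1 exon RPKM or more and 10 at the median of the 44 genes below. The GC box was present in 55.0% of the 60 and in 35.7% of all windows, the CCAAT box in 25.0% and in 37.4%, and TATAAA in 8.33% and in 13.6%. A match in such a window is a description of its letters. The windows of Itgb1 and Itgb6, the highest and the lowest of the 83 genes, and of Col3a1, a low fibrillar chain with no CpG, show the range.
Itgb1, chr8:128685404-128685703, plus strand: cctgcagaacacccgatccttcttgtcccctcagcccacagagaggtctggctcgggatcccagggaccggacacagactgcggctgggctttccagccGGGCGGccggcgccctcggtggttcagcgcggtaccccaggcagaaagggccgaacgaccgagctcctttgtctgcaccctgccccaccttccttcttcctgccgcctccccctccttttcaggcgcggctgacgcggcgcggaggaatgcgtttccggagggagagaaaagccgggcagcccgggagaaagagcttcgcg
Itgb6, chr2:60722554-60722853, minus strand: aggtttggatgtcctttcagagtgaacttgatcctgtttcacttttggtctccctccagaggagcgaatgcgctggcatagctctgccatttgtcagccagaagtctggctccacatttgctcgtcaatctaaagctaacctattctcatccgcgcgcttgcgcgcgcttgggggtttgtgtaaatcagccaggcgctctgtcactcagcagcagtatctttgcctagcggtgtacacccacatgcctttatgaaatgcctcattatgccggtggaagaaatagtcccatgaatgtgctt
Col3a1, chr1:45311288-45311587, plus strand: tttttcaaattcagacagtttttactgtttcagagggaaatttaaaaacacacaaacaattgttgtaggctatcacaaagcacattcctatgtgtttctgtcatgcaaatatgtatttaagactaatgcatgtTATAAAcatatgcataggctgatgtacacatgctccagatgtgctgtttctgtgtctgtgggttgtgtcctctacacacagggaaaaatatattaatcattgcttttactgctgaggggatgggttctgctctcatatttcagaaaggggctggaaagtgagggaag
The Itgb1 window held 27 CpG and 1 GC box, the Itgb6 window 12 CpG and none of the 3 motifs, and the Col3a1 window 0 CpG and 1 TATAAA. These 3 windows and those of Col4a1 and Col4a2 were picked for printing after their levels and letters were seen.

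Genes that process or accompany the collagens and laminins were counted at the same limit of 1 exon RPKM, which 54.1% of protein-coding genes reached. The lists were drawn up for these families. Of 29 enzymes and chaperones that modify or assemble collagen 18 reached it, led on the deposited scale by P4hb, a subunit of prolyl 4-hydroxylase that also folds other proteins, at 10.8 RPKM, Ppib, a prolyl isomerase, at 5.95 RPKM and Colgalt1, a collagen galactosyltransferase, at 5.56 RPKM. The lowest above 0 was P3h2 at 0.00407 RPKM, and Mia3, which helps export collagen, was listed at 0. Whether gene overlap or annotation played a part in the 0 of Mia3 was not tested. Of 17 other basement membrane genes 11 reached 1 exon RPKM. Agrin (Agrn) stood at 17.4 RPKM, Sparc, a collagen-binding protein, at 2.85 RPKM and Pxdn, the peroxidase that crosslinks collagen IV, at 1.91 RPKM, while Smoc2 was lowest at 0.00377 RPKM. Per kilobase of exon Agrn, at 60.4, was above all 83 genes. Of 21 genes of the neural matrix 12 (57.1%) reached 1 exon RPKM, close to the 54.1% of protein-coding genes. Among them were Ncan, the proteoglycan neurocan, at 13.9 RPKM, Tnc, tenascin C, at 3.86 RPKM and Cspg5 at 3.61 RPKM. Hapln1 was lowest at 0.00103 RPKM.

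On the receptor side, 7 of 14 other receptors for collagens and laminins (50%) reached 1 exon RPKM, against 54.1% of protein-coding genes. Rpsa, a ribosomal protein also described as a laminin receptor and a gene with many processed copies, stood at 120 RPKM, the syndecan Sdc3 at 9.29 RPKM and Adgrg1, a receptor for collagen III whose loss disturbs the basement membrane of the cortex, at 4.96 RPKM. The platelet receptor Gp6 was lowest at 0.000321 RPKM. Adgrg1 stood at 36.1 exon RPKM, while its ligand gene Col3a1 stood at 0.316 exon RPKM. Of 25 adaptor and signalling genes that act below integrins 19 (76%) reached 1 exon RPKM. Flna, filamin A, stood at 17.3 RPKM, Zyx, zyxin, at 2.17 RPKM and Bcar1 at 2.13 RPKM, and Tns4 was lowest at 0.00071 RPKM. The integrin-linked kinase Ilk was among the lowest of the adaptor and signalling genes, at 0.0241 exon RPKM. Overlap with other genes was looked up for the 83 genes alone, so its part in the value of Ilk was not tested.

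**Figure D5:**
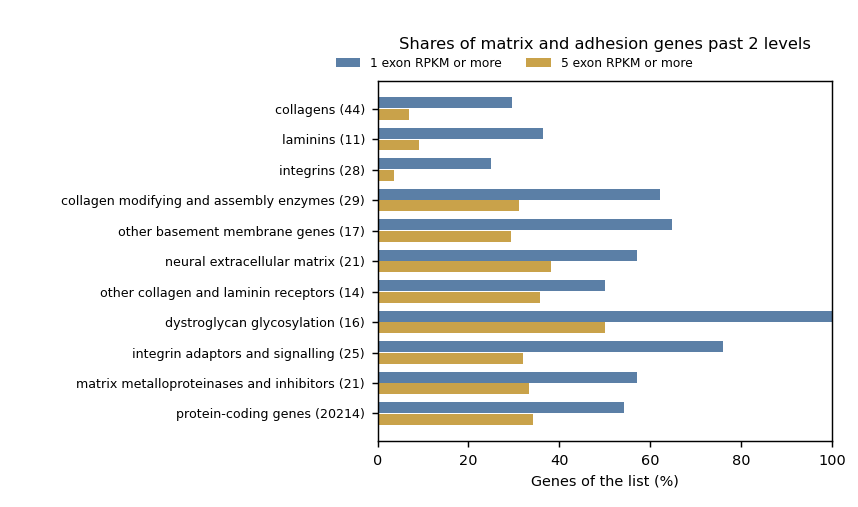
Percent of the genes of each list (horizontal axis, number of genes in brackets) at 1 exon RPKM or more and at 5 exon RPKM or more. The collagens, laminins and integrins in the top rows have bars of 25.0% to 36.4% at 1 exon RPKM, and the lists of other matrix and adhesion genes have longer ones. The bar of protein-coding genes in the bottom row is 54.1%.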

How the data were processed

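Messenger RNA of 3 E16.5 cortex libraries was measured by sequencing, and the authors deposited 1 column with the mean RPKM of these libraries, which was used as their mean with no SD. Software listed per the submitters' processing notes was TopHat2 2.0.9 and Bowtie2 2.1.0, HTSeq 0.6.0, DESeq 1.16.0 and Cuffdiff 2.0.2, and the build was mm9 (NCBIM37). What each did, the strand setting and the handling of reads with several matches are not given in the sources used here, so overlapping and near-identical genes are uncertain: 36 of the 83 genes overlap another gene, 15 of them in an exon.

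Identifiers were matched to GENCODE M21, made on a later build, and 32919 of 37991 had an entry. The length behind the values was read from low values, since 84.0% of 794 lay within 0.5% of the worth of 1 read with the gene span and 3.37% of 1217 with exon length. Exon RPKM was the deposited value times the length used, divided by the union of exons, which assumes that the counted reads lay in exons.

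Reads per library were resolved from the digits of the mean. Genes of 1 read gave the library totals, and for each gene the whole reads in the 3 libraries that give its value to a relative error of 6e-15 were sought. Lengths tried were the annotated spans and then lengths up to 400 bases from them, until 0.05 matches were to be expected by chance. This gave 60 genes at the GENCODE span, 5 at another annotated span and 13 near one, with 0.151 chance matches expected in all. Of 2000 protein-coding genes drawn from those with fewer reads, 58.45% had whole reads at their span and 0.05% at a span made 13 bases longer. The 83 genes were not excluded from the draw. The genes with most reads, such as Itgb1 and Col4a1, were outside this check, with 0.0397 and 0.0384 chance matches expected. Col20a1, Col4a4, Itga2, Itgam and Lamb3 were not resolved, and the GENCODE span was assumed for them. In simulated data all 83 genes were resolved, 0 of them wrongly, but with the true length and library totals given. The search over lengths was not part of that simulation, so it does not show how often the search errs. This procedure was worked out on the data, after other tolerances and a wider search of lengths had been tried.

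The genes, lists and pairs were chosen with earlier results of these data known. The text names each gene at 1 RPKM or 5 exon RPKM or more, the highest and lowest of each role, the genes of the pairs and, of each list, the 3 highest and the lowest above 0, and others chosen after their values were seen. Family medians, counts and ratios are descriptions, and no test between groups was made. Counting intervals are at 95%, exact Poisson for a level and normal on the log scale for a ratio. The symbol Ctage5 was not matched. Some genes that the rule names are left out of the text. Python 3.11.15, numpy 2.4.6, pandas 2.3.3, numba 0.67.0, scipy 1.17.1 and matplotlib 3.10.9 were used. Alternatives were other limits, pseudocounts, lengths, a rescaled sum, medians without the highest gene and means of logs, and, chosen after seeing the data, exons of GENCODE basic transcripts, resolved genes alone and each library left out.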

Additional observations from a re-analysis of the deposited data

How the results depend on the processing

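The count of genes at 1 RPKM or more, 3 as deposited, was 6 at a limit of 0.5 RPKM and 1 at 2 RPKM, 24 per kilobase of exon and 26 with basic exons. The collagen median of 0.0245 RPKM was 0.278 per kilobase of exon, 0.305 with the column rescaled as for TPM, 0.0214 without the highest gene and 0.0636 as a mean of logs. The laminin median of 0.0662 RPKM was 0.858, 0.823, 0.0565 and 0.143 under these settings, 0.0920 over resolved genes and 0.0902 to 0.0930 with 1 library left out. The integrin median of 0.0206 RPKM was 0.308, 0.256, 0.0151 and 0.0743, and 0.0145 to 0.0243 with 1 library left out. The difference of collagens from integrins, 0.05 on the log2 scale, was 0.19 with a pseudocount of 0.01 and reversed to -0.11 per kilobase of exon. That of laminins from integrins, 0.46, was 0.063 with a pseudocount of 1, 1.34 with 0.01, 1.23 per kilobase of exon and 0.62 to 0.72 with 1 library left out. Pair ratios that reversed per kilobase of exon, with all and then basic exons, were Lama5 to Lama4 (0.692, 0.347), Lamb1 to Lamb2 (1.58, 2.48) and Itga6 to Itga3 (2.12, 4.03); Lamb1 to Lamc1 reversed with all exons (0.696) and Itgav to Itga5 with basic exons alone (1.34). The length itself sets these shifts. Leaving out libraries used the resolved genes alone, which by itself moves the laminin median. No paired analysis was possible because only 1 pooled column was used and its resolved libraries carry no replicate number. Depth limits the genes with under 10 reads a library, such as Itgb6, Itgad, Itgax, Itgb2l, Col10a1, Col8a2 and Col6a6.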

Other observations

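The enzymes that cut matrix and their inhibitors were counted as well. Of 21 matrix metalloproteinases, ADAM proteases and tissue inhibitors, 12 (57.1%) reached 1 exon RPKM, against 54.1% of protein-coding genes. As deposited, 5 (23.8%) reached 1 RPKM, against 31.6% of protein-coding genes, all 5 of them membrane-bound metalloproteinases or Timp2. Mmp14, the main membrane-bound collagenase, stood at 4.68 RPKM, Mmp17 at 2.82 RPKM, the inhibitor Timp2, with which Mmp14 activates Mmp2, at 2.14 RPKM, Mmp24 at 2.07 RPKM and Mmp15 at 1.56 RPKM. The secreted gelatinases stood at 0.571 RPKM for Mmp9 and 0.150 RPKM for Mmp2. The lowest above 0 was Mmp13, a collagenase of cartilage and bone, at 0.00275 RPKM, and Mmp3 and Mmp7 were listed at 0. The resolved genes of this list summed to 308, 310 and 297 RPM in the deepest, middle and shallowest library.

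The genes that make the laminin-binding sugar of dystroglycan were all measured above 1 exon RPKM, 16 of 16. Dystroglycan is a receptor whose defects disturb the basement membrane of the cortex. As deposited, 9 of the 16 genes (56.25%) reached 1 RPKM. Of protein-coding genes, 54.1% reached 1 exon RPKM and 31.6% reached 1 RPKM as deposited. The highest were Dpm2 at 10.7 RPKM, B4gat1 at 8.81 RPKM and Dolk at 4.0 RPKM. The receptor gene itself, Dag1, stood at 1.35 RPKM and 12.6 exon RPKM, below Itgb1 at 24.7 exon RPKM. Whether Dag1 and Itgb1 differ in the same cells was not tested.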
